A study of Mus musculus with 12 samples.

Results

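The 10 genes Tmem132e, Apol8, Psca, Gabrr2, Serpina3h, Lrrc7, Sprr1a, Cyp4f39, Ankrd34b and P4ha3 had few reads in the control hearts of one Lemd2 mouse model and more in every mutant heart of that model. They were chosen among 24062 gene symbols by their own levels, as genes below 0.25 CPM (reads scaled to the normalised library size) in all 3 control hearts and at 0.5 CPM or more in all 3 mutant hearts of one model. 9 of them entered through the conditional knockout and P4ha3 through the knock-in, so the levels in those hearts describe the choice and carry no test. The other model was not used in choosing a gene and was tested.

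Heart RNA came from 12 mice in 4 groups of 3. Wild-type mice of 2 months (WT) were set against mice of the same age homozygous for the Lemd2 c.T38>G substitution (KI/KI), an allele made by CRISPR that is present in all cells. At postnatal day 1 (P1), Lemd2-floxed mice without Cre (floxed) were set against cardiac knockouts (cKO) that carried the same floxed alleles and Cre driven by the α-MHC promoter, which is active in cardiomyocytes, so that other cells of the heart kept the gene. Age therefore differs between the models, and floxed and WT hearts are controls of different ages. Whole hearts were read, and fewer cells of a type and less RNA per cell cannot be told apart in such samples.

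LEMD2 is a protein of the inner nuclear membrane with a LEM domain, through which this family binds the chromatin protein BAF, and it is linked to the lamina, the layer under the membrane where much silent chromatin lies. The genes in the list are better known from other tissues. Gabrr2 encodes a GABA receptor subunit of the retina, Lrrc7 the postsynaptic scaffold protein densin, Sprr1a a precursor of the cornified envelope of skin that is also known from stressed cardiomyocytes, and Cyp4f39 a fatty acid hydroxylase of the cytochrome P450 family 4F. Psca is a GPI-anchored surface protein of the Ly6 family, Apol8 an apolipoprotein L, Serpina3h a member of a cluster of serine protease inhibitor genes, Tmem132e a transmembrane protein needed for hearing, and Ankrd34b an ankyrin repeat protein. P4ha3 encodes a catalytic subunit of collagen prolyl 4-hydroxylase, the enzyme that lets collagen form a stable triple helix.

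The upstream sequences of 3 of the genes are shown because the promoters of the list span the range from none to many CpG dinucleotides. They are RefSeq promoter sequences (GRCm38.p6), written 5′ to 3′ on the strand of the gene and ended before the first transcribed base. In Sprr1a, on the minus strand at chr3:92485896-92486131, capitals mark a TATAAA box and 2 matches to TGANTCA, the letters bound by AP-1 factors, and no CG is present. In Tmem132e, on the plus strand at chr11:82388650-82388899, and P4ha3, on the plus strand at chr7:100285270-100285519, capitals mark every CG, of which there are 28 and 23.
Sprr1a: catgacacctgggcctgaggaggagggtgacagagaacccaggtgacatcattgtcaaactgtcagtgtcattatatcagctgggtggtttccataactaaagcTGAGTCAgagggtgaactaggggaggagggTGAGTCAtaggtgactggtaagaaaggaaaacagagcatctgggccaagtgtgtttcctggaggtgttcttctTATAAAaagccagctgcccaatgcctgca
Tmem132e: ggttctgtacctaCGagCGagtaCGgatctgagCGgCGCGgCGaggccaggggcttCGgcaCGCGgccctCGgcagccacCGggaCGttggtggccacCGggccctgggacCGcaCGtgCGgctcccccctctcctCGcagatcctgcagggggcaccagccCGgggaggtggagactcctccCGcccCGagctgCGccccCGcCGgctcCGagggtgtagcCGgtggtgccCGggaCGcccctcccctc
P4ha3: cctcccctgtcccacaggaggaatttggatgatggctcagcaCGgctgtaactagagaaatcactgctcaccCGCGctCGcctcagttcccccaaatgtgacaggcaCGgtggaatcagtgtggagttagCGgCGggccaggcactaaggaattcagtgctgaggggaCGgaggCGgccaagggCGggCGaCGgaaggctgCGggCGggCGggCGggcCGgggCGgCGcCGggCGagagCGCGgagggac

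At P1, 11 of the 8332 genes that were below 0.25 CPM in every floxed heart met the limits in cKO hearts, 0.132% of them. The 2 not in the list were Areg, an EGF receptor ligand, which ran from 0.724 to 0.996 CPM in cKO hearts, and Lman1l, a lectin, which ran from 0.864 to 1.40 CPM. In the opposite direction 5 genes met the same limits, Aifm3, C2cd4b, Kcnc4, Stmnd1 and Stxbp5l. That balance did not hold under all settings, since 0 genes met the limits in reverse with normalisation over all 12 libraries, 29 against 15 without floxed replicate 3 and 17 against 13 without cKO replicate 4. In the adult hearts 2 of 8979 genes met them, 0.0223%, P4ha3 and Vgll2, a cofactor of TEAD factors, and Pcp4 met them in reverse. None of the 10 genes was without reads in its controls, and the word silent holds only as a level under the limit.

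**Figure D1:**
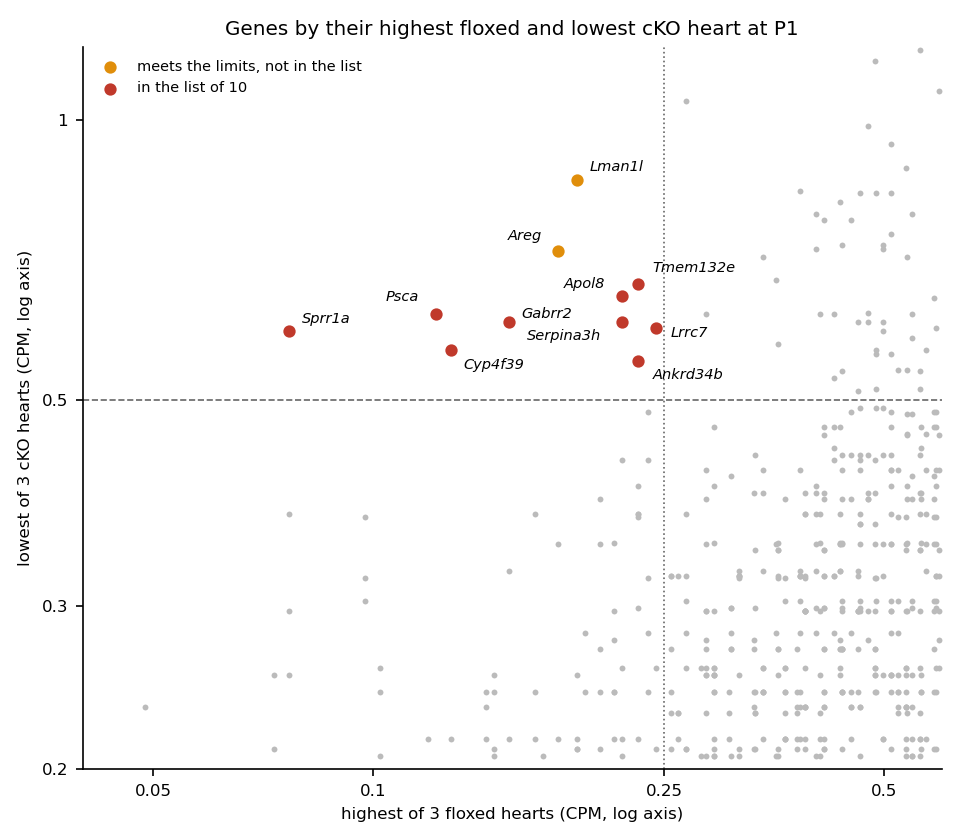
Each point is a gene at P1, placed by its highest level among 3 floxed hearts (horizontal, CPM, log axis) and its lowest among 3 cKO hearts (vertical, CPM, log axis), with dotted and dashed lines at 0.25 and 0.5 CPM and only genes inside the axes drawn. The 11 genes in the upper left corner meet both limits, Sprr1a farthest to the left at 0.0767 CPM and Lman1l highest at 0.864 CPM.

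Several genes stood close to the limits that chose them. Just inside were Ankrd34b, whose lowest cKO heart was at 0.551 CPM, Cyp4f39 at 0.565 and Sprr1a at 0.592, and Lrrc7, whose highest floxed heart was at 0.244 CPM. Just outside were Gm19705, with a lowest cKO heart at 0.485 CPM, and Bcl2a1b and Rgs1, each with a highest floxed heart at 0.268 CPM. In the adult hearts P4ha3 was inside with a highest WT heart at 0.245 CPM, and B4galnt3 was outside with a lowest KI/KI heart at 0.477 CPM.

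Lemd2 itself was at 24.3, 25.0 and 25.4 CPM in the floxed group and at 6.59, 13.1 and 11.4 CPM in cKO hearts, normalised over all 12 libraries (log2 fold change -1.27, SE 0.23, adjusted p = 0.0159, edgeR quasi-likelihood test), so reads of the gene remained. In WT hearts it was at 32.0, 34.8 and 32.9 CPM and in KI/KI hearts at 25.6, 25.2 and 24.8 CPM (log2 fold change -0.39, SE 0.06, adjusted p = 0.186). Total counts ran from 37063669 to 44789753 per library, at which 3 counts, used as a floor, correspond to 0.0670 to 0.0809 CPM. In Xist and Y-linked reads 1 heart stood apart, cKO replicate 4, which held 612 CPM of Xist and almost no Y-linked reads. The other 11 hearts held 0.170 to 2.02 CPM of Xist. Across gene counts cKO replicate 6 differed more from its group. Chi-square per degree of freedom was 139.5 between replicates 4 and 6, 82.36 between 5 and 6 and 38.2 between 4 and 5.

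Sprr1a had the highest ratio of mean levels among the 10 genes, 11.6 in cKO over floxed hearts. The floxed hearts held 3, 2 and 3 reads (0.0767, 0.0487 and 0.0712 CPM) and the cKO hearts 38, 35 and 22 reads (0.873, 0.817 and 0.592 CPM). All floxed hearts lay at or under about the level of 3 reads, and the lowest cKO heart was 7.73 times the highest floxed one. In the adult hearts, which the choice did not use, WT held 2, 3 and 5 reads and KI/KI held 4, 55 and 22. The first KI/KI heart lay within the WT range at 0.106 CPM and the others at 1.18 and 0.550 CPM. The gene failed the filter on low counts there, and without the filter its log2 fold change was 2.78 (SE 0.85, adjusted p = 0.295, edgeR).

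Apol8 followed with a ratio of 10.6. The floxed hearts held 2, 9 and 4 reads and the cKO hearts 76, 63 and 24 (1.75, 1.47 and 0.646 CPM), the widest spread among cKO hearts of the genes in the list, 2.7 times from lowest to highest. In adult hearts WT held 0, 0 and 1 read and KI/KI 2, 5 and 3, so that all KI/KI hearts lay above all WT hearts at levels near the floor. An exact two-sided permutation test of 3 against 3 hearts cannot go below p = 0.1, and of 4413 genes with a read and below the limit in every WT heart 5.48% had the same order.

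Psca had a ratio of 8.73, with 3, 5 and 5 reads in floxed and 56, 37 and 23 reads in cKO hearts (1.29, 0.864 and 0.619 CPM). Cyp4f39 had a ratio of 6.29, with 5, 4 and 5 reads in floxed and 37, 32 and 21 in cKO hearts (0.850, 0.747 and 0.565 CPM). In both, as in Apol8 and Sprr1a, cKO replicate 4 was highest and replicate 6 lowest. In adult hearts Psca held 0, 3 and 2 reads in WT and 3, 7 and 14 in KI/KI, and Cyp4f39 held 0, 0 and 5 in WT and 3, 1 and 0 in KI/KI. The groups overlapped for both genes, and Cyp4f39 was at or under the floor in 5 of 6 adult hearts.

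Serpina3h had a ratio of 6.97, with 2, 9 and 5 reads in floxed and 60, 26 and 27 reads in cKO hearts (1.38, 0.607 and 0.727 CPM). Adult WT hearts held 5, 7 and 4 reads and KI/KI hearts 5, 22 and 9, which overlapped. The annotation (GENCODE M21) lists the gene as a transcribed unprocessed pseudogene, and 11.0% of the 75-base windows of its transcripts also occur in 4 other genes, among them Serpina3g, Serpina3i and Serpina3f, so its reads are uncertain. Serpina3g, the nearest gene at 5966 bases, was at 3.12, 3.34 and 1.80 CPM in the floxed group and at 24.7, 7.66 and 1.16 CPM in cKO hearts, and these overlapped (log2 fold change 2.02, SE 0.92, adjusted p = 0.170, edgeR). Replicate 4 was the highest cKO heart for both genes.

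Both genes of neural receptors and synapses had ratios under 5. Gabrr2 held 6, 5 and 6 reads in floxed and 33, 26 and 25 in cKO hearts (0.758, 0.607 and 0.673 CPM), a ratio of 4.88. Lrrc7 held 7, 10 and 5 reads in floxed and 26, 32 and 24 in cKO hearts (0.597, 0.747 and 0.646 CPM), a ratio of 3.68. The cKO hearts differed little among themselves, by 1.25 times from lowest to highest for each gene. The summed level of 15 neuron and glia markers ran from 66.7 to 121 CPM in floxed and from 67.6 to 102 CPM in cKO hearts, and 3 of the 15 were lower in cKO hearts by edgeR's test.

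Gabrr2 was not silent in adult hearts. WT held 59, 78 and 40 reads (1.67, 2.11 and 0.981 CPM) and KI/KI 56, 31 and 29 (1.48, 0.667 and 0.725 CPM). The groups overlapped, with a log2 fold change of -0.73 (SE 0.41, adjusted p = 0.409, edgeR), opposite in sign to the cKO hearts. Adult WT hearts held more than the cKO hearts that placed the gene in the list. Lrrc7 held 0, 0 and 2 reads in WT and 0, 5 and 3 in KI/KI hearts, which overlapped.

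Tmem132e and Ankrd34b completed the list at P1. Tmem132e held 9, 8 and 9 reads in floxed and 29, 41 and 32 in cKO hearts (0.666, 0.957 and 0.862 CPM), a ratio of 3.89, and Ankrd34b held 9, 8 and 7 reads in floxed and 24, 41 and 26 in cKO hearts (0.551, 0.957 and 0.700 CPM), a ratio of 3.74. For both, replicate 5 was highest and replicate 4 lowest. Over the 9 genes replicate 4 was the highest cKO heart in 6, replicate 5 in 3 and replicate 6 in 0.

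Tmem132e differed in the same direction in the adult hearts. WT hearts held 9, 9 and 8 reads (0.255, 0.243 and 0.196 CPM) and KI/KI hearts 12, 30 and 26 (0.318, 0.645 and 0.650 CPM). All KI/KI hearts lay above all WT hearts, but the difference did not pass the test (log2 fold change 1.22, SE 0.38, adjusted p = 0.246, edgeR). Of all 14592 genes tested, 11.1% had all KI/KI hearts above all WT hearts. Ankrd34b held 1, 2 and 4 reads in WT and 4, 6 and 3 in KI/KI hearts, which overlapped. Of the 9 genes chosen at P1, then, Tmem132e and Apol8 had every KI/KI heart above every WT heart and 7 overlapped. Only Tmem132e and Gabrr2 passed the filter on low counts in the adult hearts, and neither passed the test. There edgeR called 0 of all 14592 genes (0%), with a lowest adjusted p of 0.0743, so this is no trait of the 2 genes.

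P4ha3, chosen in the adult hearts, held 3, 6 and 10 reads in WT (0.0851, 0.162 and 0.245 CPM) and 25, 46 and 30 in KI/KI hearts (0.662, 0.990 and 0.750 CPM), a ratio of 4.88. At P1, which the choice did not use, it was read in every heart, with 429, 589 and 712 reads in floxed (11.0, 14.3 and 16.9 CPM) and 1436, 1792 and 745 in cKO hearts (33.0, 41.8 and 20.1 CPM). All cKO hearts lay above all floxed hearts, and the gene rose in cKO hearts (log2 fold change 1.16, SE 0.28, adjusted p = 0.0368, edgeR). Genes were called where edgeR's adjusted p was under 0.05 and the level differed by more than 2-fold, and 2.77% of the 15317 genes tested were higher and 1.7% lower in cKO hearts. The call did not hold without cKO replicate 4, the heart that stood apart in Xist (1.13, adjusted p = 0.0666). Nor did it hold with 4 of the other 5 hearts left out in turn, where adjusted p ran from 0.0603 to 0.150. It held without replicate 6 (1.40, adjusted p = 0.00605), and DESeq2 gave an adjusted p of 0.000534.

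**Figure D2:**
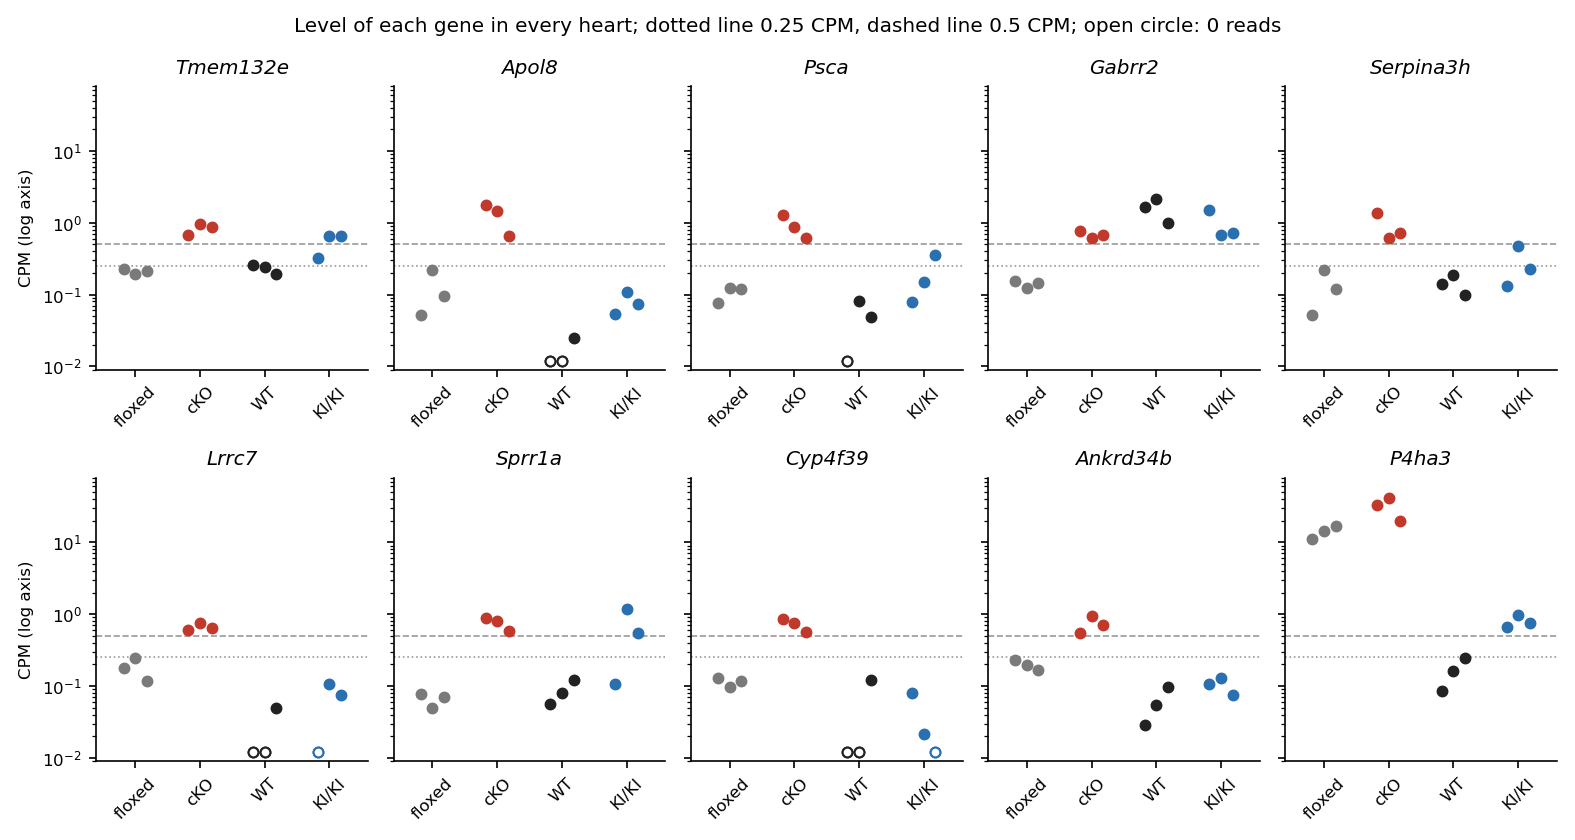
The level of each of the 10 genes in every heart (CPM, log axis), with 3 points per group for replicates 1 to 3 of floxed and WT and 4 to 6 of cKO and KI/KI hearts, open circles for 0 reads drawn at the foot of the axis, and lines at 0.25 and 0.5 CPM. Gabrr2 in adult hearts (up to 2.11 CPM) and P4ha3 at P1 (11.0 to 41.8 CPM) lie above both lines in controls.

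Levels between genes were compared per kilobase of exon, normalised over all 12 libraries. In cKO hearts P4ha3 was highest at 8.94 ± 3.07 CPM per kb (SD, n = 3), followed by Psca at 0.949 ± 0.328, Sprr1a at 0.836 ± 0.151, Serpina3h at 0.557 ± 0.244 and Apol8 at 0.384 ± 0.166. The last 4 overlapped with their neighbours in this order. Gabrr2 at 0.286 ± 0.0279 and Cyp4f39 at 0.224 ± 0.0409 touched at the edges of their ranges, as did Cyp4f39 and Tmem132e, while Tmem132e at 0.157 ± 0.0303 and Ankrd34b at 0.138 ± 0.0397 overlapped, and Lrrc7 was lowest at 0.0601 ± 0.00755, below every heart of every other gene. In WT hearts Gabrr2 was highest at 0.850 ± 0.310 CPM per kb and Lrrc7 lowest at 0.00185 ± 0.00320.

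Cell type markers were summed beside these levels. The 10 keratinocyte markers, of interest for Sprr1a and Cyp4f39, ran from 8.44 to 8.86 CPM in floxed and from 6.78 to 8.27 CPM in cKO hearts, with 5 of 10 below 0.5 CPM in every P1 heart and none called. The 8 fibroblast markers ran from 7116 to 7944 CPM in floxed and from 9668 to 10269 CPM in cKO hearts, with Tcf21 called higher. Among them Dcn, Lum and Pdgfra went the other way (log2 fold changes of -0.14 to -0.16) and were not called. The 8 macrophage markers ran from 113 to 140 CPM and from 151 to 275 CPM, with Cd68, C1qa and Emr1, the gene of F4/80, called higher. The 8 cardiomyocyte markers ran from 44531 to 50071 CPM and from 35094 to 38726 CPM, with Pln called lower, and all 8 were read in all hearts. They split in direction. Actn2, Myh7 and Mybpc3 had log2 fold changes of 0.32, 0.24 and 0.07, and Myh6, Tnnt2, Ryr2, Tnni3 and Pln of -0.24 to -1.09. The 6 endothelial markers ran from 1233 to 1316 CPM in floxed and from 1437 to 1732 CPM in cKO hearts, with none called. In the adult hearts the fibroblast markers ran from 1767 to 2166.2 CPM in WT and from 2166.4 to 4229 CPM in KI/KI hearts, the macrophage markers from 210 to 341 CPM and from 347 to 420 CPM, and the cardiomyocyte markers from 65671 to 71670 CPM and from 48943 to 64968 CPM. The 8 lung markers were uneven between hearts, from 2.92 to 469 CPM in floxed and from 4.27 to 202 CPM in cKO hearts. In WT they ran from 0.511 to 114 CPM and in KI/KI from 0.450 to 37.1 CPM, and none was called. The 8 fast skeletal muscle markers ran from 4.06 to 6.50 CPM in floxed and from 3.50 to 11.7 CPM in cKO hearts, with Myh1 called higher. The part of these cell types in the levels of the 10 genes was not tested.

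The families of the 10 genes hold 104 listed relatives, 102 of them in the table. At P1 47 passed the filter and 16 were at 0 in every heart. Of the 47, 4 rose and 1 fell in cKO hearts, 8.51% and 2.13% beside 2.77% and 1.7% of all genes, and 42 were not called. Their median log2 fold change was -0.086, against -0.0048 over all genes tested. With cKO replicate 4 left out 4 were higher and 2 lower, without floxed replicate 1 none was called, and without floxed replicate 2 or cKO replicate 5 the counts were 2 and 0.

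The relatives of P4ha3 made up 3 of the 4 that rose. P4ha1, the main catalytic subunit of the same enzyme, was at 40.3, 45.5 and 50.9 CPM in floxed and at 96.1, 98.5 and 87.4 CPM in cKO hearts (log2 fold change 1.04, SE 0.10, adjusted p = 0.00560). Plod2, a lysyl hydroxylase that sets collagen cross-links, was at 62.1, 60.6 and 70.7 CPM in floxed and at 148, 176 and 109 CPM in cKO hearts (1.16, SE 0.18, adjusted p = 0.0108). Leprel1, the prolyl 3-hydroxylase now named P3h2, was at 9.18, 7.94 and 11.3 CPM in floxed and at 31.3, 33.2 and 20.6 CPM in cKO hearts (1.58, SE 0.22, adjusted p = 0.00878). In all 3 genes the groups did not overlap, and all 3 were lowest among cKO hearts in replicate 6, as P4ha3 was.

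The other members of this group moved by less than 2-fold. P4ha2, P4hb, Plod1, Plod3, Lepre1 and Leprel2 had log2 fold changes of 0.46 to 0.72, each with an adjusted p under 0.05. P4htm, a transmembrane prolyl hydroxylase that does not act on collagen, had a log2 fold change of -0.73 (SE 0.15, adjusted p = 0.0220), also under 2-fold. At that adjusted p, with no limit on fold, 9 of the 10 were higher in cKO hearts and 1 lower, where 9.15% of all genes tested were higher and 7.31% lower. The sum of the fibroblast markers given above was also higher in cKO hearts, but the markers did not all move alike. Col1a1, Col1a2, Col3a1, Tcf21 and Postn had log2 fold changes of 0.22 to 1.05, and Dcn, Lum and Pdgfra of -0.14 to -0.16. The part of fibroblasts was not tested. In KI/KI hearts none of the 10 passed edgeR's test, and Leprel1 was at 3.92, 3.78 and 5.17 CPM in WT and at 5.83, 13.3 and 8.30 CPM in KI/KI hearts (log2 fold change 1.10, SE 0.31, adjusted p = 0.240).

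The 1 relative that fell at P1 belongs to the family of Gabrr2. Gabrb2, a β subunit of the GABA receptor, was at 3.30, 4.58 and 2.49 CPM in floxed and at 1.63, 1.33 and 0.969 CPM in cKO hearts (log2 fold change -1.40, SE 0.31, adjusted p = 0.0292, edgeR). All cKO hearts lay below all floxed hearts. Gabrr1, the neighbour of Gabrr2 at 36656 bases, was at 0.109 ± 0.0687 CPM (SD, n = 3) in cKO hearts.

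Among the relatives of the remaining genes none was called at P1. Apol6 and Apol7a, the 2 apolipoprotein L genes tested there, had log2 fold changes of -0.63 (SE 0.46) and -0.52 (SE 0.54), beside the ratio of 10.6 for Apol8. Of the 13 relatives of Sprr1a that were counted, 9 were at 0 in every P1 heart and none passed the filter on low counts. Of the 13 tested Ly6 relatives of Psca, the 4 tested serpins and the 4 tested relatives of Cyp4f39 none was called.

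In the adult hearts 45 relatives were tested and 0 were called by edgeR, where 15 had an unadjusted p under 0.05. Over all 14592 genes the count was also 0 (0%), with 2331 at an unadjusted p under 0.05. DESeq2, which called 1.07% of 14616 genes, called 5 relatives. Apol10b was at 3.32, 1.05 and 1.50 CPM in WT and at 9.43, 7.12 and 11.6 CPM in KI/KI hearts (log2 fold change 2.26, adjusted p = 9.15e-06, DESeq2; 2.27, adjusted p = 0.187, edgeR). Serpina3n and Leprel1 were the others higher (1.29 and 1.09), and Gabrg3 and Lypd2 were lower (-3.64 and -1.53). Of the 4 apolipoprotein L genes tested in adult hearts, Apol9b, Apol10b and Apol11b had all KI/KI hearts above all WT hearts, and Apol6 overlapped. The adjusted p of those 3 ran from 0.187 to 0.240 by edgeR. Of all 14592 genes tested, 11.1% had the same order. Apol8 had it too, at levels near the floor, and did not pass the filter on low counts. Apol9b and Apol11b were named after their values were seen.

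**Figure D3:**
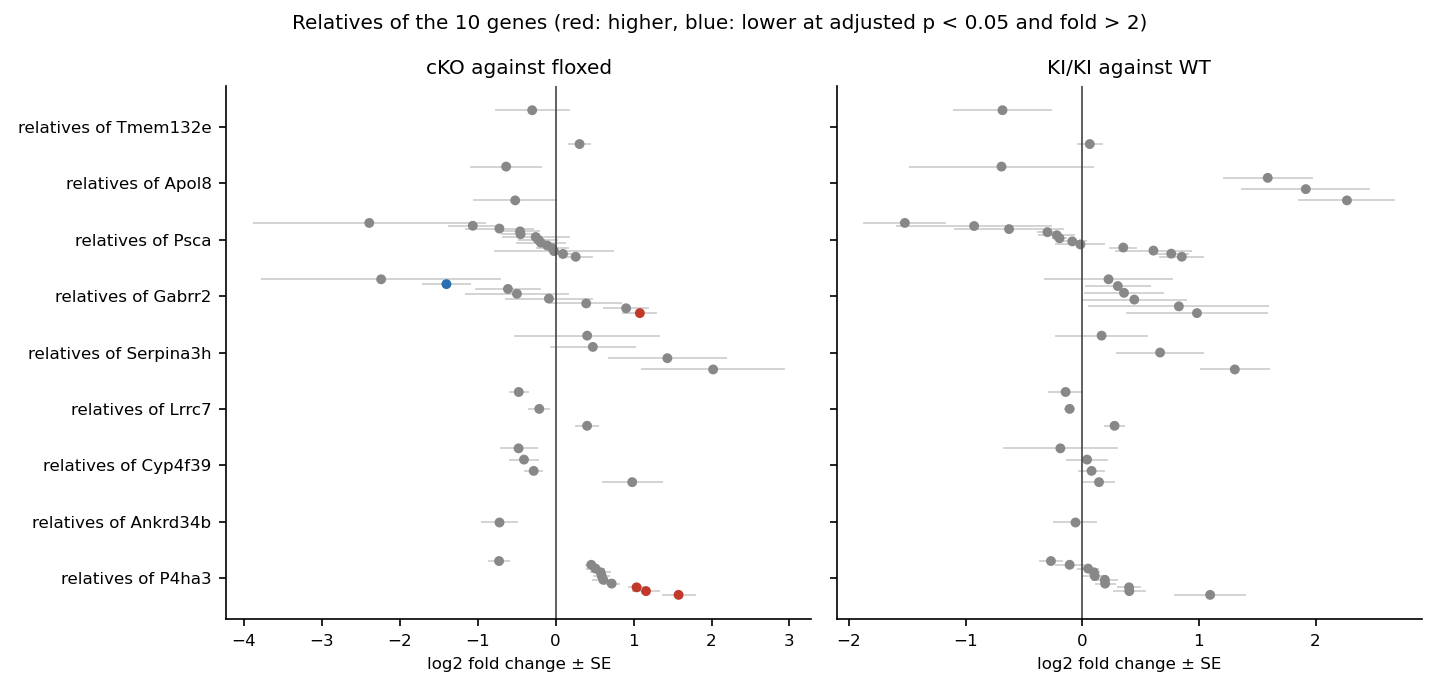
Log2 fold change with its SE (horizontal) for each tested relative, grouped in rows by the gene of the list it belongs to, for cKO against floxed hearts on the left and KI/KI against WT hearts on the right. Red points (4, at left) are called higher and the blue point (1, Gabrb2) lower by edgeR, and 9 of 10 relatives of P4ha3 lie to the right of 0 at P1.

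Each gene was also placed in the genome. Tmem132e lies at chr11:82388900-82446332, Apol8 at chr15:77747798-77757003, Psca at chr15:74714839-74717069, Gabrr2 at chr4:33062999-33095865, Serpina3h at chr12:104247905-104253669, Lrrc7 at chr3:158082891-158562221, Sprr1a at chr3:92483952-92485895, Cyp4f39 at chr17:32452723-32493320, Ankrd34b at chr13:92425896-92441658 and P4ha3 at chr7:100285520-100319699 (GRCm38). Apol8, Lrrc7 and Sprr1a are on the minus strand and the others on the plus strand. The nearest gene of the table was at a median of 9301.5 bases, against 3521 over 20462 protein-coding genes, and all 10 lay above that median. Genes that were below the limits in all P1 hearts had a median of 9176 bases and genes at 1 CPM or more in all of them 1636.

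The 3 nearest genes of the table on each side gave 60 neighbours, 19 of them also relatives. At P1 35 were tested, 2 rose (5.71%) and 1 fell (2.86%), beside 2.77% and 1.7% of all genes tested. Myh9, the nonmuscle myosin heavy chain gene 3584 bases from Apol8, was at 323, 328 and 373 CPM in floxed and at 658, 732 and 676 CPM in cKO hearts (log2 fold change 1.01, SE 0.09, adjusted p = 0.00494). Depdc1a, a gene of dividing cells 933212 bases from Lrrc7, was at 5.16, 5.16 and 5.84 CPM in floxed and at 8.54, 10.6 and 21.1 CPM in cKO hearts (1.31, SE 0.33, adjusted p = 0.0409). Ucp3, a mitochondrial carrier gene 153291 bases from P4ha3, was at 56.6, 44.9 and 29.2 CPM in floxed and at 14.5, 7.45 and 16.5 CPM in cKO hearts (-1.77, SE 0.35, adjusted p = 0.0206). Without floxed replicate 1, floxed replicate 2 or cKO replicate 5 none of the 3 was called, without cKO replicate 6 another gene was called lower, making 2, and without cKO replicate 4 the counts stayed at 2 and 1.

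The closest tested gene beside each other gene of the list was not called. Lrrc40, at 14404 bases from Lrrc7, had a log2 fold change of 0.22 (SE 0.12), Fam151b, at 7967 bases from Ankrd34b, of -0.22 (SE 0.17), Ube2j1, at 10636 bases from Gabrr2, of 0.30 (SE 0.13), Pgm2l1, at 6652 bases from P4ha3, of -0.12 (SE 0.14), and Cyp4f17, at 12730 bases from Cyp4f39, of -0.47 (SE 0.24). Them6, at 4135 bases from Psca, had a log2 fold change of 0.82 (SE 0.28), and all cKO hearts lay above all floxed hearts (adjusted p = 0.0846, edgeR). Ccl12, at 285500 bases from Tmem132e, had a log2 fold change of 0.89 (SE 0.53). Ppme1, on the other side of P4ha3 at 7038 bases, had 0.41 (SE 0.09, adjusted p = 0.0257, edgeR), under 2-fold. At an adjusted p under 0.05 with no limit on fold, 3 of the 35 tested neighbours were higher in cKO hearts and 3 lower. Of all genes tested 9.15% were higher and 7.31% lower. Both neighbours of Sprr1a, Sprr3 and Sprr4, were at 0 in every heart. In the adult hearts 36 neighbours were tested and 0 were called by edgeR, 8 having an unadjusted p under 0.05, and DESeq2 called 1, Lypd2.

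**Figure D4:**
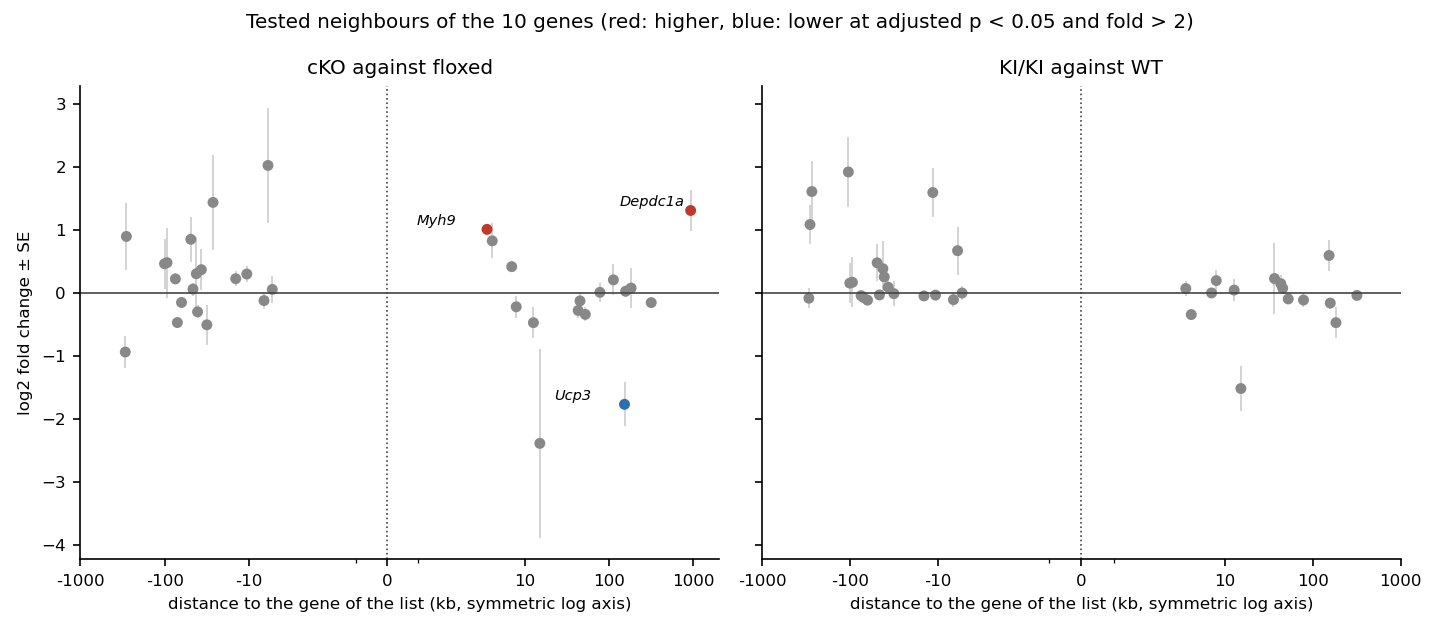
Log2 fold change with its SE (vertical) of each tested neighbour against its distance from the gene of the list (horizontal, kb, symmetric log axis, negative toward lower coordinates), for cKO against floxed hearts on the left and KI/KI against WT hearts on the right. The called genes at P1 are Myh9, Depdc1a and Ucp3, at 3584, 933212 and 153291 bases, and edgeR calls no neighbour in the adult hearts.

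The promoters of 8 of the 10 genes were in the RefSeq table, as windows of 300 bases from 250 before to 50 after the start. CpG observed over expected was 0.858 for P4ha3, 0.816 for Ankrd34b and 0.794 for Tmem132e, then 0.472 for Lrrc7, 0.443 for Cyp4f39, 0.301 for Apol8, 0.112 for Gabrr2 and 0.0 for Sprr1a. The median was 0.769 over genes at 1 CPM or more in all P1 hearts and 0.188 over genes below the limits in all of them. The 7 chosen at P1 had a median of 0.443, and Tmem132e and Ankrd34b were above 0.6, as were 9.93% of the genes below the limits and 73.1% of those at 1 CPM or more.

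**Figure D5:**
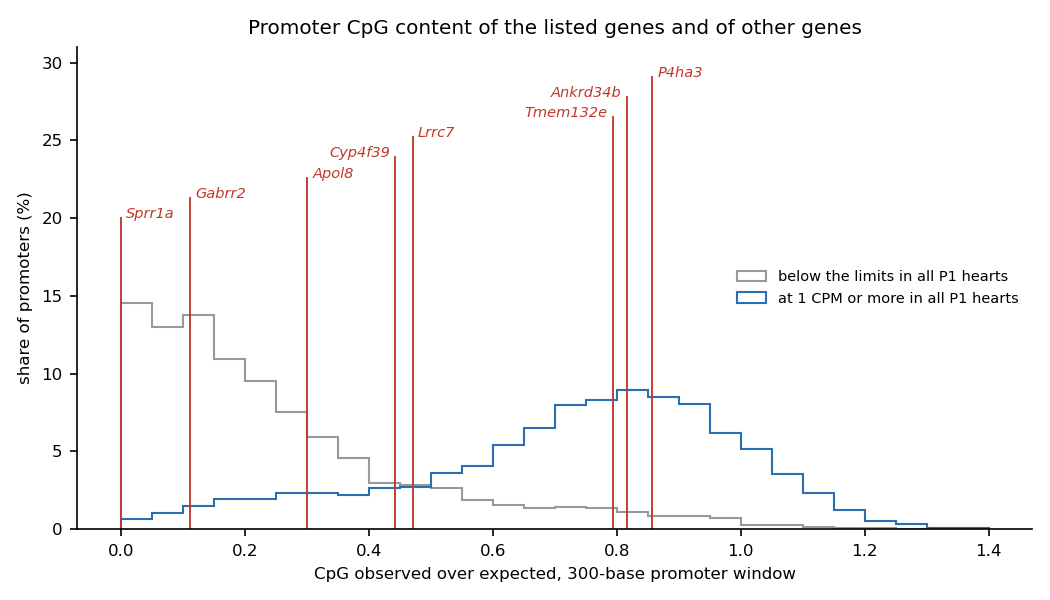
Share of promoters (vertical, %) by CpG observed over expected in the 300-base window (horizontal), for genes below the limits and genes at 1 CPM or more in all P1 hearts, with a red line at the value of each of the 8 genes of the list that has a promoter entry. Sprr1a and Gabrr2 lie among the former (0.0 and 0.112), and Tmem132e, Ankrd34b and P4ha3 at 0.794 to 0.858 near the peak of the latter.

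Motifs were searched on both strands of these windows. TATAAA was found in Sprr1a alone of the 8, beside 14.2% of 27025 promoters, and TGANTCA also in Sprr1a alone, at positions -146 and -116 from the start, beside 7.93%. CCAAT was found in Gabrr2, Lrrc7 and Sprr1a, beside 37.9%. The letters TTCNNNGAA, GGAATG and TGATGCAA, read by STAT, TEAD and ATF4 factors, were in none of the 8, beside 8.47%, 14.6% and 0.929% of all promoters. The letters of TGANTCA read the same on either strand, so each site was counted once.

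Over the 12 libraries the gene most like 9 of the members by Pearson's r of log2 CPM was named, as a description over 14241 genes that mixes age with genotype. P4ha3 was most like Phldb2 (r = 0.993), which ran from 42.9 to 56.9 CPM in WT, 64.6 to 82.2 in KI/KI, 220 to 248 in floxed and 286 to 313 in cKO hearts. Apol8 was most like Eif2ak3 (r = 0.980), the kinase PERK of the unfolded protein response, at 22.3 to 24.4 CPM in floxed and 34.0 to 36.9 CPM in cKO hearts. Serpina3h was most like the endothelial gene Pecam1 (r = 0.963), at 236 to 267 CPM in floxed and 298 to 336 CPM in cKO hearts. The others were Fbxl2 for Ankrd34b (r = 0.971), Lima1 for Psca (r = 0.967), Rasgef1a for Sprr1a (r = 0.967), Tpst2 for Gabrr2 (r = 0.966), 1500009L16Rik for Tmem132e (r = 0.952) and Pim1 for Cyp4f39 (r = 0.939). Among the 9 genes chosen at P1 the 36 pairs had r from -0.534 for Gabrr2 and Lrrc7 to 0.933 for Tmem132e and Sprr1a, with a median of 0.629. All 9 were chosen as low in floxed and high in cKO hearts, which are among these libraries. High r between them therefore follows in part from the choice, and r between other genes was not set beside it.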

How the data were processed

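Heart RNA was sequenced as 75-cycle single-end reads of poly(A) RNA, 1 library per mouse. According to the methods the authors removed adapters with Trim Galore, used STAR 2.7.2b for alignment to mm10 and HTSeq for the counts per gene, and the deposited counts are whole numbers without normalization. The strand setting is not given in the sources used here. Where gene and antisense transcript overlap (88 exon bases of Ankrd34b, 67 of Lrrc7), their reads cannot be told apart.

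CPM are counts over TMM-normalised library sizes of the 6 libraries of a comparison, unless 12 are named. Genes passing filterByExpr were tested with edgeR 4.0.16 (quasi-likelihood, robust; R 4.3.3) with Benjamini-Hochberg adjustment over all genes tested, and called where the adjusted p was under 0.05 and the level differed by more than 2-fold. No test was made in hearts that chose a gene. DESeq2 1.42.0, RLE factors, no filter, 1 fit of 12 libraries, a Y-linked covariate and each library left out were alternatives. Scripts were tested on simulated counts.

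The 10 genes and all lists were chosen with earlier results of these data known. Named besides the 10 are relatives and neighbours past the threshold, up to 2 relatives per gene with the highest level, the gene most alike, and genes at the limits; nearer neighbours and other relatives were named after their values were seen. A few results are not reported here. Positions are from GENCODE M21 (GRCm38), where 98.4% of 24062 symbols matched, and promoters from RefSeq (GRCm38.p6), where Psca and Serpina3h had no entry. Floors and depths cover counting error only. No 2 replicates agreed within sampling noise (chi-square per degree of freedom 19.4 to 139.5). Labels do not say that litters differed, and p-values measure the spread between these samples.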

Additional observations from a re-analysis of the deposited data

Results flagged for a closer look

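Ucp3, a neighbour of P4ha3, had log2 fold changes of opposite sign in the models. Its log2 fold change was -1.77 in cKO hearts, where all cKO hearts lay below all floxed hearts, and 0.59 in KI/KI hearts, where all KI/KI hearts lay above all WT hearts (45.5 to 47.6 CPM against 18.5 to 37.5 CPM). The fall in cKO hearts passed edgeR's test (adjusted p = 0.0206), and the KI/KI value did not (adjusted p = 0.312). Of all genes tested, 11.1% had all KI/KI hearts above all WT hearts. The difference between the models was not tested.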

How the results depend on the processing

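No paired analysis was possible because the groups compared share no replicate numbers. Among the alternatives 42 counts moved by more than 1.5 times and the P4ha3 call was lost in 6. The other 111 values of main results stayed within 1.5 times of a count or kept their call, and the 20 of single genes kept their direction and stayed uncalled. The 111 include counts of 0 relatives, neighbours and listed genes called in KI/KI hearts. There edgeR called 0 of all 14592 genes, so such counts had little room to move and say little about stability. The genes lie at 2 to 10 reads in their controls, so the limits decide the list: with 0.1 and 1 CPM, or with 0 counts in every control, 0 genes were switched on or off in either model. With TMM over all 12 libraries 1 gene was switched on in KI/KI hearts (P4ha3 was lost), and 0 were switched off in cKO hearts, while 8 of 9 genes chosen at P1 remained.

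With each heart left out in turn, genes switched on in cKO hearts ran from 12 to 18 and switched off from 6 to 29. In KI/KI hearts they ran from 2 to 11 and from 1 to 6. Leaving out a heart relaxes limits that every heart must meet, and every gene of the main setting was kept each time. These ranges therefore cannot show whether the list rests on a single heart. Relatives higher in cKO hearts ran from 0 to 5 and lower from 0 to 2. Neighbours higher ran from 0 to 2 and lower from 0 to 2. The log2 fold change of P4ha3 in cKO hearts ran from 0.914 to 1.40. It was 1.13 (adjusted p = 0.0738) with the Y-linked covariate. That covariate gave 2 relatives lower in cKO hearts, and 1 fit of 12 libraries gave 0. DESeq2 called 3 relatives higher, 2 lower and 1 neighbour lower in KI/KI hearts, where edgeR called 0. The cause was not tested.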
